A study of Homo sapiens with 3 samples.

Results

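The genes described here are 10 protein-coding genes that lie as 5 pairs of near neighbours on the human genome: PIP4K2B with MLLT6 and NLGN2 with ZBTB4 on chromosome 17, CC2D1A with DCAF15 and PRKACA with SAMD1 on chromosome 19, and C1GALT1C1 with MCTS1 on chromosome X. They are 10 of the 23379 genes in the files. The pairs were chosen by their FPKM in these same libraries, which differed together between the groups, so the values of the members are a description and support no statement about neighbouring genes in general. The libraries were made from DU145, an established line grown from a metastasis of a human prostate carcinoma. There was 1 library in each of 3 groups: P-Enter, the negative control; WT, cells overexpressing wild-type BRAF; and L597R, cells that received plasmids for a BRAF mutant of that name, in which 1 amino acid of the kinase domain is exchanged. The labels give no time after transfection, dose or selection. With 1 library per group there is no replicate error, no p-value is given, and each difference compares libraries and not conditions.

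Expression is given in FPKM, the deposited unit, which scales the reads of a gene to its length and to the reads of the library. Whole reads could be worked out from the FPKM for 97.4% of genes, with library totals of 13294004 (P-Enter), 15665132 (WT) and 16603676 (L597R). Values given in threes below are in that order of libraries. The reads give each FPKM ratio an exact 95% interval that covers counting error only. BRAF, the kinase between RAS and MEK in the ERK pathway, was at 1.65, 4.41 and 9.59 FPKM, and so was higher in both libraries labelled as carrying more of it. The epithelial keratin KRT18 was at 34.3, 36.6 and 37.6 FPKM, while the epithelial cadherin CDH1 had 1, 0 and 0 reads. The leukocyte, endothelial and fibroblast markers PTPRC, PECAM1 and COL1A1 stayed at or under 0.109 FPKM in all 3 libraries, and EPCAM and KLK3 were not analysed here.

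Genes that lie close together can share regulatory sequence. Head to head neighbours, which are transcribed away from each other, can share one promoter region, whereas convergent neighbours run towards each other and meet only beyond their 3′ ends, and tandem neighbours run the same way. No pair of the 5 was head to head. PIP4K2B (chr17:38765689-38800126, minus strand) and MLLT6 (chr17:38705542-38729803, plus strand) were convergent, 35885 bases apart. NLGN2 (chr17:7404874-7419860, plus strand) and ZBTB4 (chr17:7459366-7484263, minus strand) were convergent, 39505 bases apart. C1GALT1C1 (chrX:120625793-120630150, minus strand) and MCTS1 (chrX:120594010-120621074, plus strand) were convergent as well, 4718 bases apart. CC2D1A (chr19:13906201-13930879, plus strand) and DCAF15 (chr19:13952492-13961449, plus strand) were tandem with 21612 bases between them. PRKACA (chr19:14091688-14118084, minus strand) and SAMD1 (chr19:14087840-14091036, minus strand) were tandem with 651 bases between them. All positions are on GRCh38, from GENCODE 29.

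The word adjacent therefore holds for only some of the pairs. Between PIP4K2B and MLLT6 the annotation has 6 other genes, 3 of them protein-coding, and the proteasome subunit PSMB3 among them was measured at 4.25, 4.75 and 3.56 FPKM. Between NLGN2 and ZBTB4 it has 10 other genes, 6 of them protein-coding, and the acetylcholine receptor subunit CHRNB1 among them was at 1.35, 1.47 and 0.792 FPKM. The other 3 pairs have no gene lying wholly between them.

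Promoter sequence is shown for 4 members as examples, 1 from each of 4 pairs, to let the motif matches be read: MLLT6, DCAF15, ZBTB4 and C1GALT1C1. The sequences are from RefSeq on GRCh38.p14, on the strand of the gene, and hold no annotated exon base. The MLLT6 stretch ends at the RefSeq start, which lies before the GENCODE start given above. Capitals mark GC boxes (GGGCGG on either strand, so CCGCCC as well; matches may overlap) and CCAAT boxes (CCAAT on either strand, so ATTGG as well).
MLLT6, chr17:38705023-38705272, plus strand: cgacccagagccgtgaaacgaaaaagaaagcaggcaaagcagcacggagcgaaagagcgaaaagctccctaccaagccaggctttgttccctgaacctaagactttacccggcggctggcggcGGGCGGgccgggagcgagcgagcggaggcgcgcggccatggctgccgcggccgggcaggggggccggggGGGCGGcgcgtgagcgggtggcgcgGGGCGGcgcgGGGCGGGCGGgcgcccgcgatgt
DCAF15, chr19:13952259-13952491, plus strand: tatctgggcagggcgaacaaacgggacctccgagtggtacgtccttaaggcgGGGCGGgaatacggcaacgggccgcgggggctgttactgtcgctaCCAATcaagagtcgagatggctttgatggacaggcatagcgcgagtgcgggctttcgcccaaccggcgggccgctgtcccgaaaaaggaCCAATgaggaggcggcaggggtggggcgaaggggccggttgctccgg
ZBTB4, chr17:7484264-7484365, minus strand: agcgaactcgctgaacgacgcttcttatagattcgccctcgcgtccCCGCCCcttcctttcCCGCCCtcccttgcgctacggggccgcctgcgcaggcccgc
C1GALT1C1, chrX:120630151-120630304, minus strand: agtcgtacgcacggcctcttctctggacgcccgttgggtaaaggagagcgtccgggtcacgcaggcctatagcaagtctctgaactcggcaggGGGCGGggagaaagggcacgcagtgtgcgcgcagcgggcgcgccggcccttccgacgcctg
The stretch before MLLT6 held 5 GC boxes, of which the last 2 overlap, that before DCAF15 held 1 GC box and 2 CCAAT boxes, and that before C1GALT1C1 held 1 GC box. The ZBTB4 stretch, with 2 GC boxes, is the whole 102-base gap to POLR2A, the gene for the largest subunit of RNA polymerase II, which runs the other way. So the head to head partner of ZBTB4 is POLR2A and not NLGN2. Motifs were searched in windows of the full 250 bases before the RefSeq start. A GC box was held by 8 of the 10 members, against 42.6% of 35116 promoters, and a CCAAT box by 3, against 32.0%. The E-box CACGTG was found in CC2D1A and in 6.34% of promoters, and the ETS site CCGGAAGT in DCAF15 and in 3.42%. No member window held the TATA box TATAAA (10.7% of promoters), the AP-1 site TGACTCA (4.2%), the cyclic AMP element TGACGTCA (1.65%), the NRF1 motif GCGCATGC (2.63%) or the YY1 site AAGATGGC (1.36%), each searched on both strands. The windows were GC-rich in most members: CpG counts in the 250 bases before the start ran from 2 in NLGN2 to 36 in MLLT6, beside a median of 11 over all promoters. The lowest counts, 2 in NLGN2 and 3 in MCTS1, are from RefSeq starts that lie inside the genes as GENCODE gives them, past the starts printed above. A match is a description of the letters, and the libraries hold no measurement of binding or methylation at these starts.

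In deposited FPKM all 10 members were at a low level. In P-Enter they lay between percentile 25.3 and percentile 51.6 of the 14117 protein-coding genes, whose median was 3.43 FPKM. The lowest percentile is that of MCTS1, whose level per length is uncertain, as described below. Over the 3 libraries their values ran from 0.0706 to 3.76 FPKM, on 2 to 273 reads. A mean of 1 FPKM over the 3 libraries was the filter for comparing genes, and 3 members passed it (CC2D1A, DCAF15 and SAMD1) while 7 did not.

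**Figure D1:**
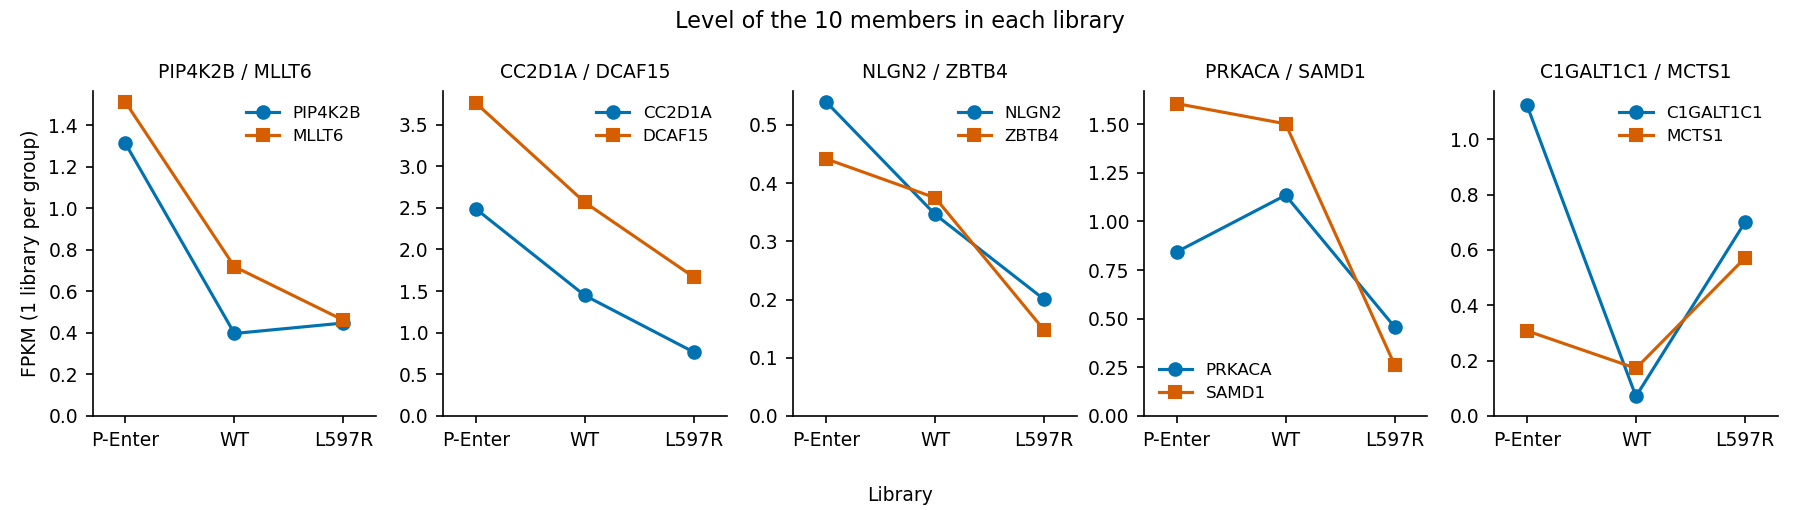
FPKM of the 10 members in the 3 libraries, 1 panel per pair, each with its own linear axis from 0; a point is 1 library and the lines only join the points of a gene. CC2D1A and DCAF15 go down in parallel from 2.49 and 3.76 FPKM in P-Enter, whereas MCTS1 is highest in L597R at 0.571 FPKM.

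PIP4K2B and MLLT6 were lower in both BRAF libraries than in the control. PIP4K2B is a lipid kinase that phosphorylates phosphatidylinositol 5-phosphate, a minor membrane lipid. Its level was 1.31, 0.397 and 0.448 FPKM in P-Enter, WT and L597R, on 101, 36 and 43 reads. WT and L597R sat together, both below P-Enter. The FPKM ratio to P-Enter was 0.302 (0.201 to 0.447) for WT and 0.341 (0.233 to 0.492) for L597R, and the ratio of L597R to WT was 1.13 (0.707 to 1.81). MLLT6 encodes AF17, a PHD finger protein known as a fusion partner of KMT2A in leukaemia and, like its paralogue MLLT10, as a partner of the histone methyltransferase DOT1L. MLLT6 was at 1.51, 0.719 and 0.461 FPKM, on 273, 153 and 104 reads, and unlike PIP4K2B it stepped down again between the BRAF libraries, with a ratio of 0.641 (0.495 to 0.828) for L597R to WT. Its ratios to P-Enter were 0.476 (0.388 to 0.582) for WT and 0.305 (0.241 to 0.384) for L597R. The ratio of PIP4K2B divided by that of MLLT6 was 0.636 (0.402 to 0.993) for WT, 1.12 (0.713 to 1.74) for L597R and 1.76 (1.02 to 3.02) for L597R to WT. For L597R a difference between the partners was not detectable at this depth, while for WT and for L597R to WT the intervals left out equal change.

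The relatives of each member were compared by a size rule, a difference of at least 0.5 in log2(FPKM + 1) and a mean of at least 1 FPKM. Few genes of any kind passed it as lower (1.81% for WT to P-Enter, 2.11% for L597R to P-Enter), so the counts of 0 given for the lists here are near the background. Of 5 other phosphoinositide kinases measured at a mean of 1 FPKM or more, none passed a difference of 0.5 in log2(FPKM + 1) in any comparison. PIP4K2A was at 7.03, 7.95 and 7.74 FPKM and PIKFYVE, which acts on phosphatidylinositol 3-phosphate, at 5.09, 5.55 and 6.53. Of 7 measured partners around DOT1L, none passed either. MLLT10 was at 5.31, 6.03 and 6.75 FPKM and AFF4, a scaffold of the super elongation complex, at 22.5, 26.0 and 29.1, both of them higher in L597R while MLLT6 was lower.

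CC2D1A and DCAF15 were both highest in P-Enter, lower in WT and lowest in L597R. CC2D1A is a scaffold and transcriptional repressor that binds the CHMP4 proteins of ESCRT-III, the machinery that cuts membranes. It was at 2.49, 1.45 and 0.766 FPKM, on 143, 98 and 55 reads, with ratios to P-Enter of 0.582 (0.445 to 0.757) and 0.308 (0.221 to 0.423). DCAF15 is the substrate receptor of a CUL4 and DDB1 ubiquitin ligase, known as the receptor through which aryl sulfonamide drugs destroy the splicing factor RBM39. It was at 3.76, 2.57 and 1.67 FPKM, on 148, 119 and 82 reads, with ratios of 0.682 (0.531 to 0.875) and 0.444 (0.334 to 0.585). Both genes were also lower in L597R than in WT, at 0.530 (0.373 to 0.744) and 0.650 (0.485 to 0.869). The ratio of CC2D1A divided by that of DCAF15 was 0.852 (0.590 to 1.23), 0.694 (0.450 to 1.07) and 0.814 (0.515 to 1.29) in the 3 comparisons, so a difference between the partners was not detectable at this depth.

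The paralogue CC2D1B was at 12.9, 11.8 and 11.4 FPKM, and none of 5 measured genes of the ESCRT-III list passed the size rule; CHMP2A was at 49.2, 45.5 and 42.2. None of the 13 other measured genes of the CUL4 ligase passed it. CRBN, another drug-binding receptor, was at 2.16, 2.38 and 2.81 FPKM, and RBM39 at 22.0, 23.7 and 26.2. Some exon bases of this pair are shared with genes on the other strand: 5.0% of those of CC2D1A with BRME1 (C19orf57) and 6.42% of those of DCAF15 with PODNL1. BRME1 was at 0.509, 0.266 and 0.251 FPKM, a ratio of 0.493 (0.247 to 0.954) for L597R to P-Enter, and without the strand setting of the counting its reads and those of CC2D1A cannot be told apart where the exons overlap. In the GENCODE 29 exons the shared part was 6.24% for MLLT6, and for the other 7 members it was 0. Reads of some members came out whole only at longer lengths than annotated. The lengths were 7764 bases against 6144 for PRKACA and 10764 against 2837 for MCTS1. Overlap of exons in the gene model behind the deposited values, also between partners, was not tested.

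NLGN2 and ZBTB4 had few reads, and both were lowest in L597R. NLGN2 is a cell adhesion protein known from inhibitory synapses. It was at 0.539, 0.346 and 0.2 FPKM, on 41, 31 and 19 reads. ZBTB4 is a zinc finger protein of the Kaiso family, which binds methylated DNA. It was at 0.442, 0.375 and 0.147 FPKM, on 36, 36 and 15 reads. The ratios of L597R to P-Enter were 0.371 (0.203 to 0.654) for NLGN2 and 0.334 (0.170 to 0.625) for ZBTB4. For WT to P-Enter both intervals included 1, at 0.642 (0.389 to 1.05) and 0.849 (0.520 to 1.39), so a difference was not detectable at this depth. For L597R to WT the ratio of ZBTB4 was 0.393 (0.200 to 0.736), and that of NLGN2, 0.578 (0.309 to 1.06), included 1. The ratio of one partner divided by the other included 1 in all 3 comparisons.

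NLGN2 is a gene of neurons, and its closest relatives had few reads here: NLGN1 was at or under 0.0178 FPKM and NLGN3 at or under 0.113. The gephyrin gene GPHN, which scaffolds inhibitory receptors and also works in cofactor synthesis, was at 3.98, 3.75 and 3.73 FPKM. In the Kaiso and methyl-CpG list ZBTB33, which encodes Kaiso itself, went the other way from ZBTB4, at 3.38, 4.87 and 6.48 FPKM and a ratio of 1.92 for L597R to P-Enter. ZBTB33 was the only 1 of 60 measured relatives in the 10 lists to pass the size rule, while 2.66% of 10639 genes passed it as higher in L597R. ZBTB38 was at 9.80, 10.9 and 13.2 FPKM.

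PRKACA and SAMD1 were both lowest in L597R. PRKACA is the alpha catalytic subunit of protein kinase A, the kinase switched on by cyclic AMP. It was at 0.843, 1.13 and 0.458 FPKM, on 87, 138 and 59 reads. WT was the highest library, with a ratio to P-Enter of 1.35 (1.02 to 1.78), and L597R the lowest, with 0.543 (0.383 to 0.764). SAMD1 binds unmethylated CpG islands and is a partner of the histone demethylase KDM1A and of L3MBTL3. It was at 1.61, 1.5 and 0.262 FPKM, on 49, 54 and 10 reads. A difference between P-Enter and WT was not detectable at this depth, at a ratio of 0.935 (0.623 to 1.41), and L597R was far below both, at 0.163 (0.0738 to 0.327) of P-Enter and 0.175 (0.0793 to 0.347) of WT. SAMD1 had the lowest L597R ratio of the 10 members. The ratio of PRKACA divided by that of SAMD1 was 3.32 (1.5 to 7.91) for L597R to P-Enter and 2.31 (1.07 to 5.42) for L597R to WT. So in L597R the partners, with only 651 bases between them, did not move by equal amounts. For WT to P-Enter the ratio of one divided by the other was 1.44 (0.874 to 2.37), so a difference between the partners was not detectable at this depth.

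Protein kinase A has a second catalytic subunit gene, PRKACB, which was at 5.91, 6.70 and 8.37 FPKM and so was highest where PRKACA was lowest. None of 7 measured subunits and inhibitors of the kinase passed the size rule, and the inhibitor PKIB was at 1.27, 1.49 and 1.75 FPKM. None of 4 measured partners of SAMD1 passed it. L3MBTL3 was at 1.96, 1.86 and 2.75 FPKM and RCOR1, a corepressor of KDM1A, at 12.7, 13.3 and 13.9.

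C1GALT1C1 and MCTS1 gave another pattern, with the lowest value in WT. C1GALT1C1 encodes COSMC, the chaperone that the core 1 galactosyltransferase C1GALT1 needs to fold. It was at 1.12, 0.0706 and 0.7 FPKM, on 27, 2 and 21 reads. MCTS1 works with DENR in recycling ribosomes and restarting translation. It was at 0.307, 0.172 and 0.571 FPKM, on 44, 29 and 102 reads. The ratio of WT to P-Enter was 0.0629 (0.00724 to 0.25) for C1GALT1C1 and 0.559 (0.337 to 0.914) for MCTS1. The ratio of L597R to WT was 9.91 (2.42 to 87.1) and 3.32 (2.18 to 5.20). The 2 reads of C1GALT1C1 in WT set the width of these intervals. For L597R to P-Enter the partners parted: MCTS1 was higher, at 1.86 (1.29 to 2.71), and C1GALT1C1 was at 0.623 (0.335 to 1.14), with 0.336 (0.162 to 0.693) for the ratio of one divided by the other. The reads of MCTS1 came out whole only at a gene length of 10764 bases, against 2837 exon bases in the annotation, so its deposited FPKM rest on a longer gene model than the annotation used here and its level per length is uncertain, while its ratios do not depend on the length.

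The enzyme that COSMC serves, C1GALT1, was at 4.28, 4.37 and 5.0 FPKM. Among the 5 measured genes of mucin-type glycosylation none passed the size rule; GALNT1 was at 9.67, 10.7 and 13.7 FPKM and GALNT7 at 7.18, 9.49 and 9.84, both of them transferases that start the sugar chain. DENR was at 48.0, 50.5 and 59.9 FPKM and EIF5B, a factor that joins ribosomal subunits, at 16.6, 20.6 and 22.9, and none of 5 measured genes of that list passed. Over the 10 lists together, 0 of 60 measured relatives passed the size rule as lower in any comparison. Over all genes 1.81%, 2.11% and 1.47% did, so a count of 0 is near the background. The relatives' median difference in log2(FPKM + 1) was 0.02, 0.06 and 0.02, beside -0.00, -0.01 and 0.01 over all genes tested.

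**Figure D2:**
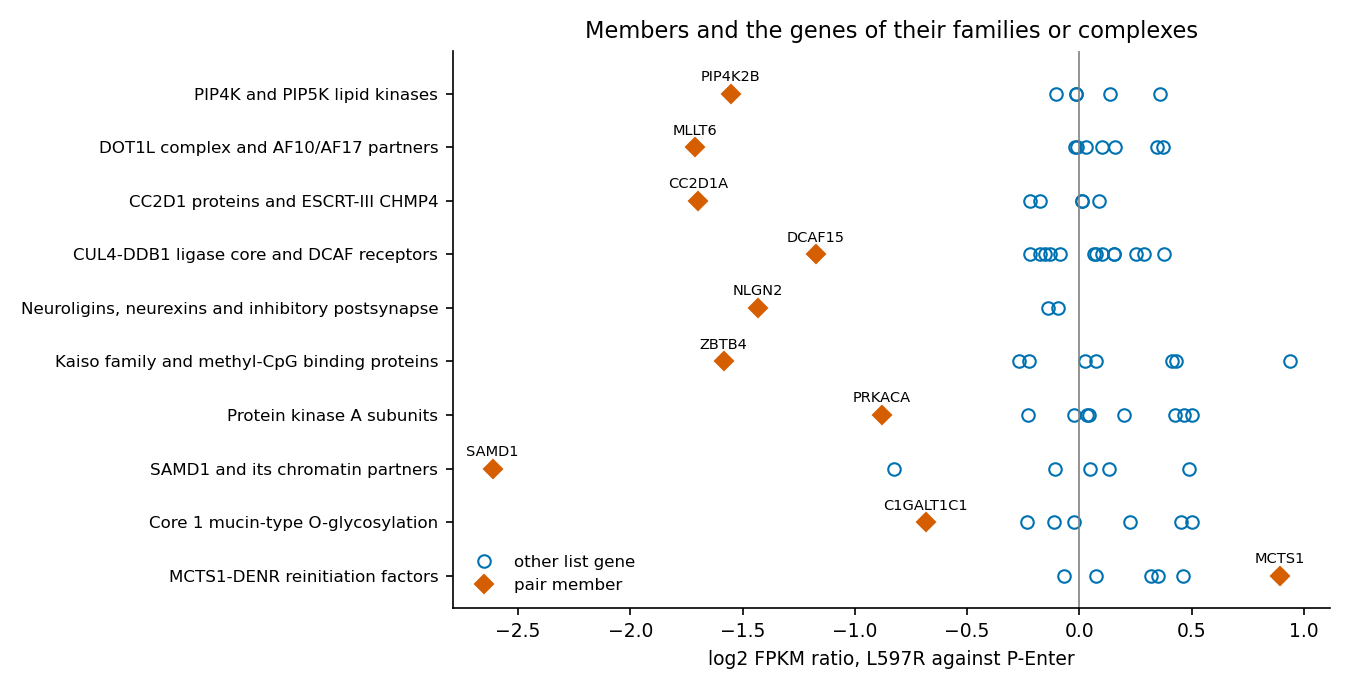
Log2 FPKM ratio of L597R to P-Enter for each member (filled diamonds) and the other genes of its list (open circles) with at least 20 reads over both libraries; a row is a list and the vertical line is equal expression. MCTS1 lies to the right at 0.89, the other 9 members lie to the left, and the leftmost open circle of the SAMD1 list is L3MBTL1, with a ratio of 0.565 on 17 and 12 reads.

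Against P-Enter, 9 of the 10 members were lower in WT (all but PRKACA) and 9 in L597R (all but MCTS1). For WT the interval of the ratio lay below 1 in 6 members and above 1 in 1; for L597R it lay below 1 in 8 and above 1 in 1. The median log2 ratio of the 10 members was -0.71 in WT and -1.49 in L597R, beside -0.00 and -0.01 over all genes. Both comparisons share the P-Enter library. For L597R to WT 7 members were lower and 3 higher, with a median of -0.72. These directions and sizes are what the members were chosen for. The shares of all genes with a ratio or an interval below or above 1 are not given here, so nothing is read from these counts.

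**Figure D3:**
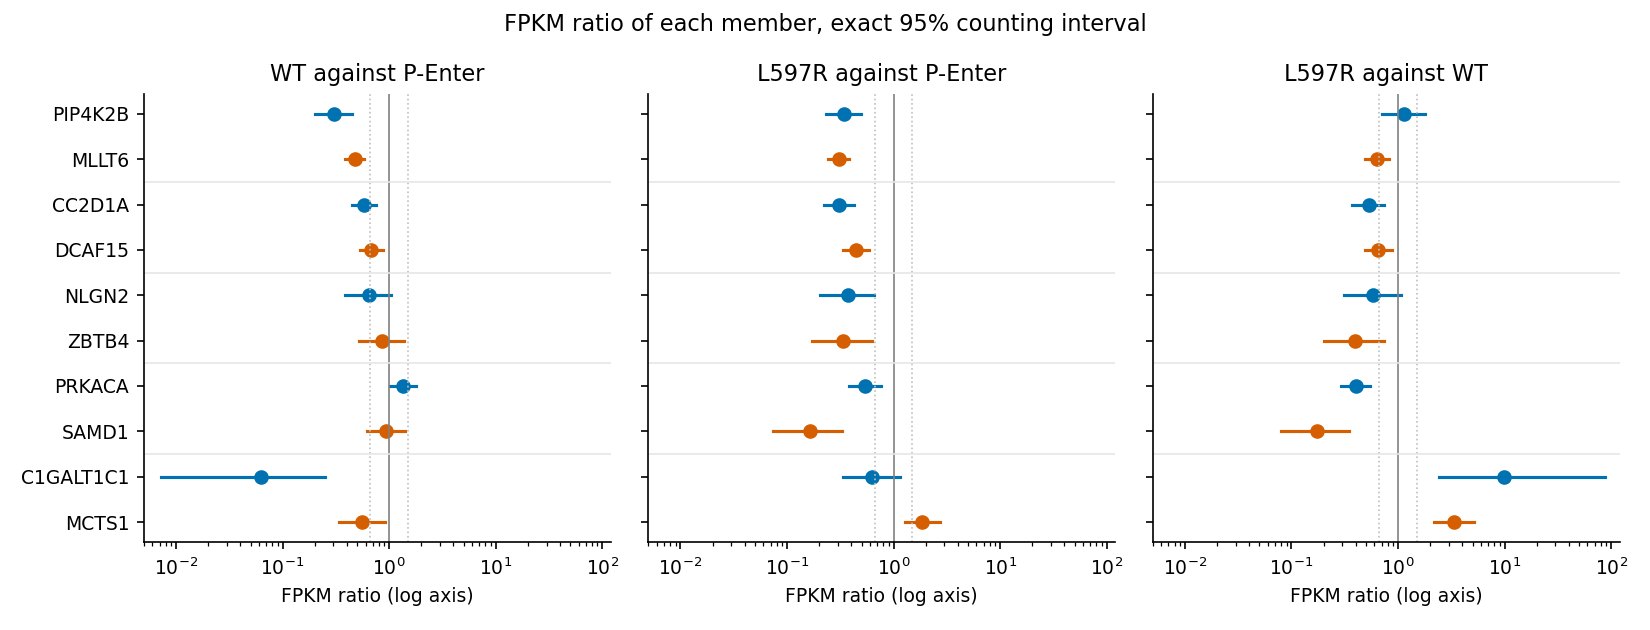
FPKM ratio of each member in the 3 comparisons on a log axis; points are ratios, bars are exact 95% intervals of counting error, the solid line is a ratio of 1 and the dotted lines are 1.5-fold either way. In L597R against P-Enter the bars of 8 members lie left of 1, and C1GALT1C1 has the widest bar in WT, from 0.00724 to 0.25.

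By the size rule, a difference of at least 0.5 in log2(FPKM + 1), which is 1.41-fold for a high gene and more for a low one, together with a mean of at least 1 FPKM, 1 member was lower in WT than in P-Enter (CC2D1A), where 1.81% of 10639 genes were. In L597R 3 members were lower than in P-Enter (CC2D1A, DCAF15 and SAMD1), where 2.11% of genes were, and 1 was lower than in WT (SAMD1), where 1.47% were. A rule on the interval, which asks that it lie wholly beyond 1.5-fold and does not need the filter on the mean, took more of the members. For WT to P-Enter 3 were lower (PIP4K2B, MLLT6 and C1GALT1C1), where 0.413% of 12835 genes with at least 20 reads were. For L597R to P-Enter 7 were lower (PIP4K2B, MLLT6, CC2D1A, DCAF15, NLGN2, ZBTB4 and SAMD1), where 0.458% were. For L597R to WT 2 were lower (PRKACA and SAMD1), where 0.278% were, and 2 were higher (C1GALT1C1 and MCTS1), where 0.285% were. The choice of members used these same contrasts, so nothing is read from these shares.

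The name of the set, pairs that change together, held in part. In each of the 3 comparisons 4 of the 5 pairs had both members on the same side, and the odd pair was a different one each time: PRKACA with SAMD1 for WT to P-Enter, C1GALT1C1 with MCTS1 for L597R to P-Enter, and PIP4K2B with MLLT6 for L597R to WT. Sides are those of the ratio alone. In each odd pair the interval of 1 member (SAMD1, C1GALT1C1 and PIP4K2B) included 1. For NLGN2 and ZBTB4 in WT, on the same side, both intervals did. The share of all adjacent pairs on the same side is not given here, so nothing is read from the 4 of 5. In each comparison the ratio of one partner divided by the other had an interval that left out 1 in 2 of the 5 pairs. Both members passed the interval rule in the same direction in 1 pair for WT to P-Enter, 3 pairs for L597R to P-Enter and 2 pairs for L597R to WT.

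Pairs with both genes past a rule were also counted over all adjacent genes. This is a background from which nothing is read, since the members were picked for changing together. Of 10580 adjacent pairs of genes with a mean of at least 1 FPKM, both were lower by the size rule in 0.0567% for WT to P-Enter, 0.0851% for L597R to P-Enter and 0.0378% for L597R to WT, and only CC2D1A with DCAF15 was a member pair among the 10580. With the interval rule and genes of at least 20 reads, 3 of the 5 member pairs were adjacent. In WT 0 of 12810 adjacent pairs were both lower than in P-Enter (0%), and 53 single genes were. In L597R 4 of 12846 pairs were both lower than in P-Enter (0.0311%): CC2D1A with DCAF15, ZBTB4 with POLR2A, EIF3K with ACTN4, and ACTN4 with ECH1. For L597R to WT 3 of 12945 were both lower (0.0232%), among them PRKACA with SAMD1, and 3 were both higher (0.0232%), among them C1GALT1C1 with MCTS1. Across 11039 adjacent protein-coding pairs the log2 ratios of the neighbours had a Spearman correlation of 0.10 for WT to P-Enter, 0.30 for L597R to P-Enter and 0.21 for L597R to WT. After a regression on GC content, gene length and level the correlations were -0.01, 0.03 and 0.01. These are correlations across genes of the same libraries, which are not replicates. The regression took GC content, length and level together, and the part of each was not tested.

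There were 17 other expressed genes (mean of at least 1 FPKM) within 100 kb of the pairs. RFX1 and IL27RA lie near both chromosome 19 pairs. Those past the size rule as lower lay mostly near NLGN2 and ZBTB4, and against P-Enter their share was above that of all genes. By the size rule 2 of the 17 were lower in WT than in P-Enter (EIF5A and POLR2A, 11.8%, beside 1.81% of all genes), 4 were lower in L597R (IL27RA, EIF5A, POLR2A and TNFSF12, 23.5%, beside 2.11%), and 0 were lower in L597R than in WT (beside 1.47%). By the interval rule only POLR2A was lower, in both BRAF libraries (1 of 17, beside 0.413% and 0.458%). EIF5A, POLR2A and TNFSF12 are all neighbours of NLGN2 and ZBTB4. No neighbour of PIP4K2B and MLLT6 or of C1GALT1C1 and MCTS1 passed the size rule, so the shares are not a trait of all the pairs.

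Around PIP4K2B and MLLT6 all 5 neighbours were above both members in both BRAF libraries on the log2 ratio. CWC25, a splicing factor gene next to PIP4K2B, was at 1.70, 1.19 and 1.86 FPKM, with ratios to P-Enter of 0.697 (0.5 to 0.970) for WT and 1.1 (0.820 to 1.47) for L597R. PSMB3, between the members, had ratios of 1.12 (0.803 to 1.56) and 0.837 (0.589 to 1.19). The mean of the pair minus the median of its neighbours, in log2(FPKM + 1), was -0.62 for WT to P-Enter, -0.63 for L597R to P-Enter and -0.01 for L597R to WT.

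Near CC2D1A and DCAF15 the nearest expressed gene, the transcription factor RFX1, was at 2.01, 1.85 and 2.35 FPKM, a ratio of 1.17 (0.946 to 1.46) for L597R to P-Enter, and so did not follow the pair down. IL27RA, a cytokine receptor subunit between the chromosome 19 pairs, was at 5.79, 3.90 and 3.27 FPKM, with ratios to P-Enter of 0.673 (0.550 to 0.822) and 0.564 (0.458 to 0.694). For WT to P-Enter its ratio lay between those of CC2D1A (0.582) and DCAF15 (0.682), and for L597R to P-Enter it was above both. The mean of CC2D1A and DCAF15 minus the median of the 2 neighbours was -0.19, -0.65 and -0.46 in log2(FPKM + 1) in the 3 comparisons. For PRKACA and SAMD1, with IL27RA, RFX1 and the histone chaperone gene ASF1B as neighbours, it was 0.32, -0.85 and -1.0. ASF1B was at 1.73, 1.30 and 2.15 FPKM and thus was highest in L597R, where PRKACA and SAMD1 were lowest.

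NLGN2 and ZBTB4 lay among neighbours that were partly lower themselves, and here the answer turned on the scale. POLR2A, head to head with ZBTB4 across the 102 bases printed above, was at 3.6, 1.88 and 1.85 FPKM, with ratios to P-Enter of 0.522 (0.443 to 0.613) and 0.512 (0.436 to 0.601). Its ratio of L597R to WT was 0.982 (0.821 to 1.17), beside 0.393 for ZBTB4. EIF5A, a translation factor gene, was at 29.2, 19.9 and 20.2 FPKM, the same shape as POLR2A. TNFSF12, a cytokine gene, was at 4.17, 3.31 and 2.65 FPKM, with 0.634 (0.471 to 0.853) for L597R to P-Enter, and NEURL4 was at 3.79, 3.69 and 3.62. In log2(FPKM + 1) the pair lay -0.08, -0.02 and -0.06 from the median of its 8 neighbours, which is next to no difference. On the log2 ratio for L597R to P-Enter, which does not shrink low genes, it lay -1.11 from the median, and all 8 neighbours were above both members.

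C1GALT1C1 and MCTS1 had 1 expressed neighbour, CUL4B, the scaffold of the ligase that DCAF15 belongs to. It was at 4.27, 4.47 and 5.21 FPKM, with ratios to P-Enter of 1.05 (0.985 to 1.11) for WT and 1.22 (1.15 to 1.29) for L597R. The low WT value of both members was not seen in CUL4B. The mean of the pair minus CUL4B was -0.63, -0.26 and 0.36 in log2(FPKM + 1) in the 3 comparisons. In all, 4 of 5 pairs lay below their neighbours' median for WT to P-Enter, 5 for L597R to P-Enter and 4 for L597R to WT. These counts include differences as small as -0.02 for NLGN2 and ZBTB4 (L597R to P-Enter) and -0.01 for PIP4K2B and MLLT6 (L597R to WT). The members were chosen for their directions and the chromosome 19 pairs share RFX1 and IL27RA, so nothing is read from the counts.

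**Figure D4:**
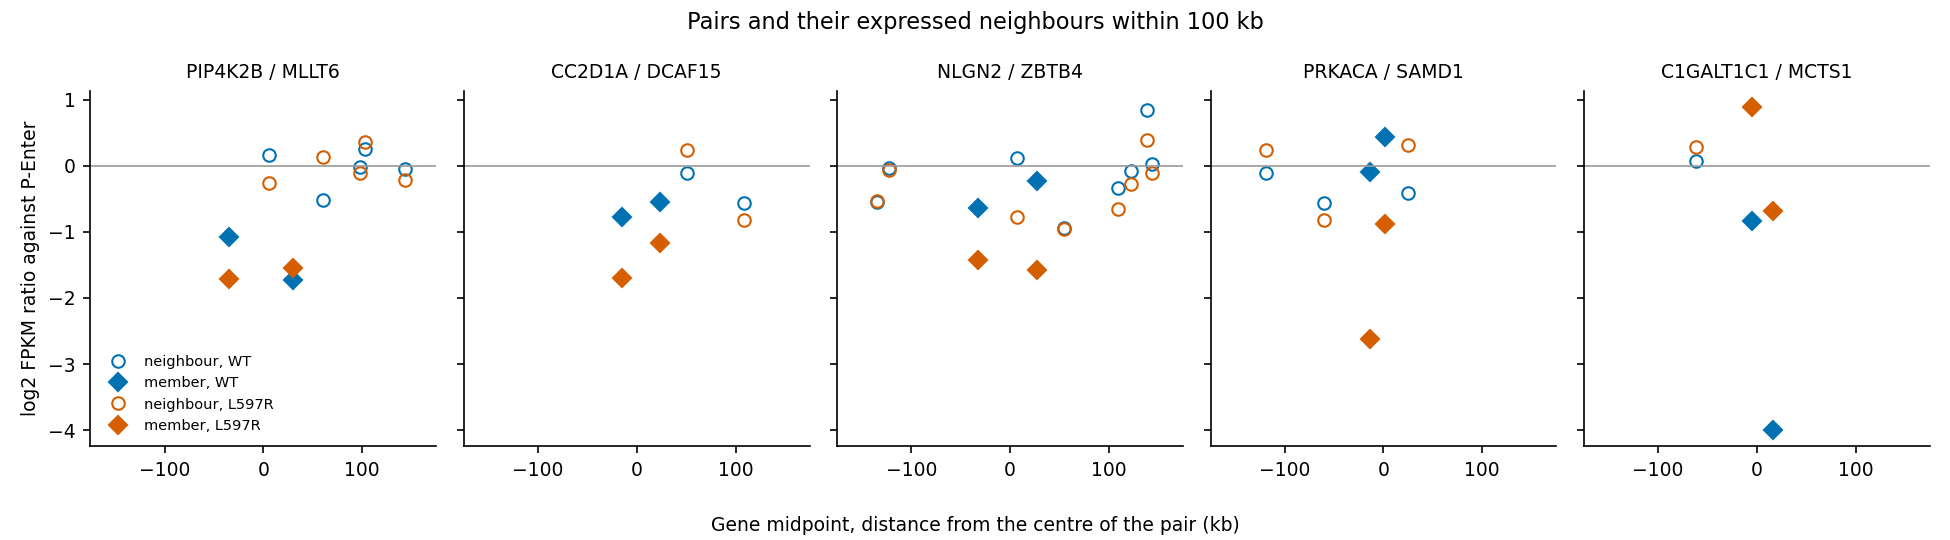
Log2 FPKM ratio to P-Enter of the members (filled diamonds) and of the other genes within 100 kb with a mean of at least 1 FPKM (open circles), in WT (blue) and L597R (orange), against the distance of each gene's midpoint from the centre of the pair in kilobases. The L597R diamonds of the first 4 pairs lie below all L597R circles, and POLR2A at -0.96 is the lowest circle of the NLGN2 and ZBTB4 panel.

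GC content moved with the differences across the whole libraries, and most members are GC-rich. Across 11063 protein-coding genes the Spearman correlation of GC content with the log2 ratio was -0.38 for WT to P-Enter, -0.60 for L597R to P-Enter and -0.49 for L597R to WT (across genes, which are not replicates). The median GC content of protein-coding genes with a mean of at least 1 FPKM was 47.4% and the 75th percentile 55.7%. Of the members 6 lay above that percentile, from ZBTB4 at 57.2% to CC2D1A at 64.4%, PRKACA was at 54.2% and PIP4K2B at 53.3%, and C1GALT1C1 and MCTS1 were at 40.6% and 42.5%. After the regression on GC content, gene length and level, the median log2 ratio of the members was -0.61 for WT to P-Enter, -1.26 for L597R to P-Enter and -0.59 for L597R to WT. For L597R to P-Enter SAMD1 stood at -2.36 after it and -2.61 before, MLLT6 at -1.51 and -1.71, CC2D1A at -1.5 and -1.70, and DCAF15 at -0.97 and -1.17. The values after it come from log2 ratios with a fraction of a read added to each library, and those before it have nothing added. The 2 are therefore not on exactly the same scale. Members below 0 after the regression numbered 8, 9 and 7. The part of GC content in the members' values beyond this regression was not tested.

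**Figure D5:**
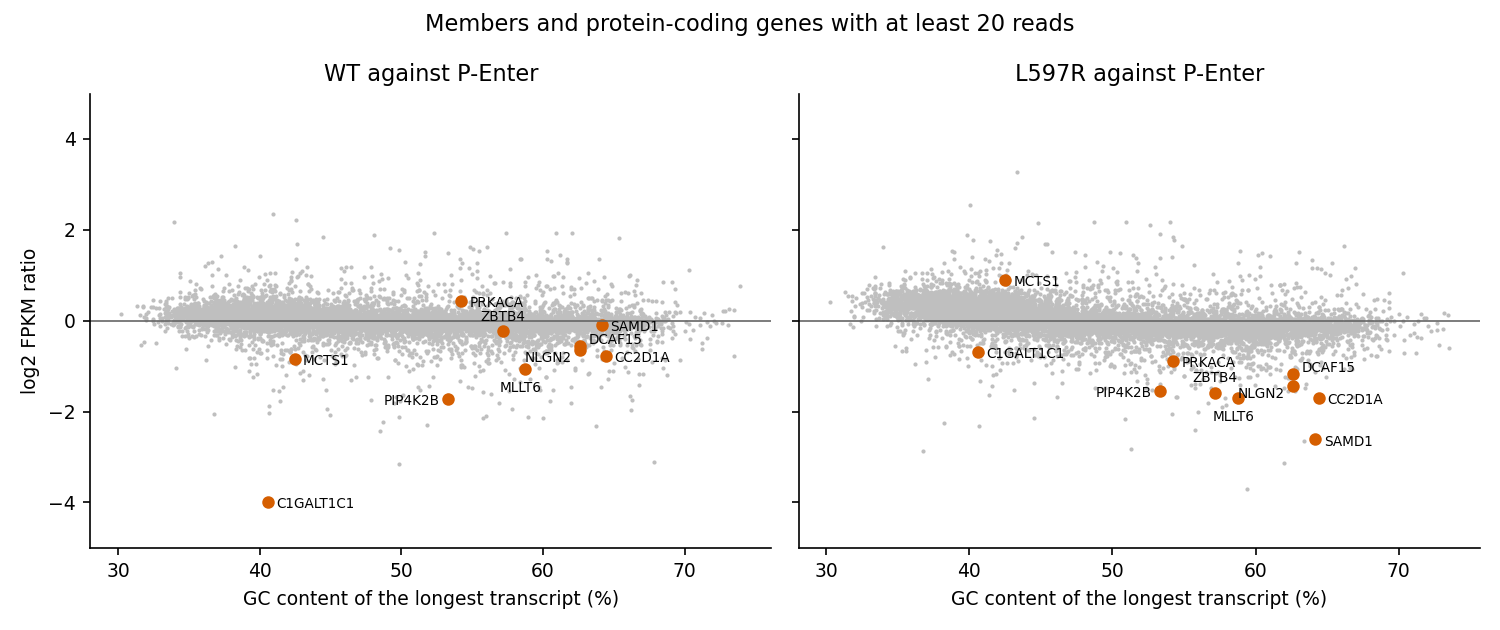
Log2 FPKM ratio to P-Enter against the GC content of the longest transcript, for protein-coding genes with at least 20 reads over both libraries (grey) and the members (orange, named). In L597R the grey genes slope down with GC content (Spearman -0.60), and 9 of the 10 members lie below 0, among them C1GALT1C1 at 40.6% GC.

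Genes elsewhere in the genome were named by their distance from the mean of the pair in the 2 differences to P-Enter. The differences were in log2(FPKM + 1), among 6166 protein-coding genes with a mean of at least 5 FPKM and over 3 libraries. Where the values of partners lie on different sides, that mean is the shape of neither. In L597R C1GALT1C1 was at -0.32 and MCTS1 at 0.26, with a mean of -0.03, and in WT PRKACA was at 0.21 and SAMD1 at -0.06. PLPPR2 was nearest to NLGN2 and ZBTB4, at a distance of 0.0027, with 13.7, 12.4 and 10.6 FPKM. CCDC9B followed at 0.0073, with 15.6, 14.3 and 12.1 FPKM. On this scale low genes such as the members give small differences. A match with a higher gene, here and for the pairs that follow, is therefore not one of fold. FBL, which encodes the ribosomal RNA methyltransferase fibrillarin, was nearest to PRKACA and SAMD1 at 0.11, with 35.6, 39.3 and 20.2 FPKM, and RCC2 was next at 0.16, with 11.3, 10.7 and 6.88 FPKM. PSME2, a proteasome activator subunit, was nearest to CC2D1A and DCAF15 at 0.18, with 19.3, 15.1 and 8.88 FPKM. CUTA was next for that pair at 0.20 and nearest to PIP4K2B and MLLT6 at 0.18, with 25.7, 18.4 and 15.3 FPKM, and LSM14A, an RNA-binding protein gene, was at 0.20 from the latter pair with 9.23, 6.5 and 5.44. For C1GALT1C1 and MCTS1 the nearest were TRIML2 at 0.18, with 9.54, 7.03 and 9.14 FPKM, and NUBP1 at 0.21, with 7.62, 5.42 and 6.62 FPKM. None of these lies on the chromosome of its pair except FBL, which is on chromosome 19 with PRKACA and SAMD1.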

How the data were processed

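RNA sequencing of 3 DU145 libraries, 1 per group, was analysed. The submitters' processing notes name HISAT2 and Trimmomatic, HTSeq and Cufflinks, with the build hg38 (GRCh38); versions, annotation release and strand setting are not given in the sources used here. Per the labels' protocols a stranded mRNA kit was used. Per the file headers, the authors deposited 1 FPKM value for each Ensembl gene. No test was run. The members and gene lists were chosen with earlier results of these data known.

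Positions, exon lengths and GC content came from GENCODE 29 (22807 of 23379 genes matched), promoters from RefSeq (10 of 10 members matched). Whole reads were recovered for 22766 genes by searching the library totals and, near the annotated length, the gene length that gave whole numbers within 0.0001; 11097 genes had exactly that length. Summed over genes these reads made 100.7% of each total. Intervals are exact Clopper-Pearson 95% intervals, given the summed counts of both libraries, and those of a ratio of ratios are exact conditional odds ratio intervals. PCR copies are not independent molecules, so they cover counting error only. The size rule used a pseudocount of 1 FPKM; the interval rule (at least 20 reads) and the neighbours with 20 reads were added after the values were seen. The regression had cubic terms in GC content, log length and log level, over protein-coding genes with at least 30 reads. For log2 ratios a fraction of a read was first added to each library. The scripts were tested on simulated data. Changes were planted there only in genes with a mean of at least 5 FPKM, which is above the level of every member. Read recovery was tested only near the annotated length, and the length of MCTS1 lies far from it.

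Named genes were the members, neighbours past the size rule or nearest on each side, up to 2 genes per list with the largest difference in L597R, 2 genes nearest in shape per pair, and BRAF. PSMB3, CHRNB1, BRME1, NLGN1, NLGN3, CC2D1B, C1GALT1, RBM39, PRKACB, L3MBTL1, where outside that rule, were chosen after their values were seen. Software was scipy 1.17.1, pandas 2.3.3, numpy 2.4.6 and matplotlib 3.10.9 under Python 3.11.15.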

Additional observations from a re-analysis of the deposited data

How the results depend on the processing

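Counts are given in the order WT to P-Enter, L597R to P-Enter and L597R to WT. The number of members that were lower was 9, 9 and 7; after the regression it was 8 in WT, where SAMD1 went to 0.01, and it was the same under the other alternatives. No called value changed sign, and rescaling by the median ratio moved no count by over 1.5 times. Members past the size rule numbered 1, 3 and 1. With a pseudocount of 0.1 they were 2 in WT and 3 for L597R to WT, and with log2 ratios of recovered reads again 2 and 3. With a pseudocount of 5 they were 0, 0 and 0, after the regression 0 in WT, and by the interval rule 3, 7 and 4 in either direction. Genes past the size rule in either direction numbered 304, 508 and 327. They were 540, 990 and 572 with a pseudocount of 0.1, and 71, 83 and 61 with 5. They were 1164, 1339 and 1069 with no filter, 43, 168 and 50 with a mean of at least 5 FPKM, 104, 86 and 77 with a difference of at least 1, 55, 241 and 86 among protein-coding genes, and 70, 88 and 73 by the interval rule. Adjacent pairs past the rule in the same direction numbered 6, 23 and 12. They were 21, 92 and 29 with a pseudocount of 0.1, and 0, 2 and 0 with 5. They were 40, 49 and 35 with no filter, 1, 9 and 1 with a mean of at least 5 FPKM, 1, 0 and 0 with a difference of at least 1, 3, 14 and 3 among protein-coding genes, and 0, 5 and 6 by the interval rule. Pairs below their neighbours' median numbered 4, 5 and 4. With a mean of at least 5 FPKM they were 2, 2 and 1, since only 2 pairs have a neighbour at that level. With a pseudocount of 5 they were 3, 4 and 2, and with a window of 50 kb 3, 4 and 3. They were 4, 4 and 3 both with protein-coding neighbours only and after the regression. List genes past the rule numbered 0, 1 and 0. They were 1 in WT and 1 for L597R to WT with a pseudocount of 0.1, and 0 for L597R to P-Enter with a pseudocount of 5 or a mean of at least 5 FPKM. Fewer or more genes enter when a filter changes, and for the other settings the cause was not tested.

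The difference of NLGN2 and ZBTB4 from their neighbours changed sign in 2, 4 and 2 of 11 settings, from -1.11 to 0.20 for L597R to P-Enter. That of PIP4K2B and MLLT6 changed sign in 4 of 11 settings for L597R to WT (-0.12 to 0.07). The other differences from neighbours kept their sign in all settings run. Depth limits the members too: C1GALT1C1 had 2 reads in WT and SAMD1 10 in L597R. No paired analysis was possible because each group has 1 library, and none could be left out. Each recovered read number rests on the gene length nearest the annotation.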
